A study of Mus musculus with 8 samples.

Results

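The translation initiation and elongation factors are the proteins that start ribosomes on messenger RNA and carry them along it. Genes were taken by symbol, as those that begin with Eif and a digit from 1 to 6 or with Eef and 1 or 2, among probe sets that carry a single gene symbol. Eif4a1, Eif2s3y and the eIF2 kinases (Eif2ak genes) were left out by name. Where a gene had several such sets, the one brightest on average was used, and a gene was kept where at least 2 arrays exceeded that array's median over all named genes. The symbols matched 58 genes, and 53 were kept, of 11712 genes that passed the same filter and 22180 genes that had a probe set of their own. Of the 53, 51 lay above the median on all 8 arrays, and Eif2s2 and Eef1aknmt, the members nearest the threshold, on 6. The 5 genes under it were Eif2b4, which was above the median on 1 array, and Eif4a3, Eef1akmt3, Eif2c5 and Eif4e1b, which were above it on 0. Eif1, Eif2s1, Eif2s3x, Eif3g, Eif4g1 and Eif4ebp3 were not analysed here.

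The values are log2 signals of Affymetrix arrays made from mouse medial prefrontal cortex (mPFC). All mice carried a ribosomal tag with green fluorescent protein (GFP) that Cre recombinase switches on. A canine adenovirus carrying Cre (CAV2-Cre), which is taken up at axon endings, was injected in NAC or in VTA (the labels' abbreviations for the injected regions), so that tagged ribosomes mark mPFC cells that project there. The 4 groups of 2 arrays were the GFP-trap pull-down after NAC injection, the pull-down after VTA injection, and the unpurified input RNA of each. The inputs are named as such in the source label and in the label of the immunoprecipitation reagent, which is given as none. Their description label nevertheless speaks of translating RNA, as for the pull-downs, a conflict that bears on each pull-down minus input value. The tag reports cells that took up the virus, whatever their type, and the labels used here give no age, sex or strain. Nothing there tells whether both arrays of a group stem from different animals, so the p-values reflect spread among these 8 arrays alone, which may be technical.

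Translation begins when the small ribosomal subunit, loaded with initiator tRNA by eIF2 and held by eIF1, eIF1A and eIF3, is brought to the capped end of a messenger RNA by the eIF4 factors. eIF2B recharges eIF2 with GTP, and eIF5 and eIF5B complete the joining of the large subunit. During elongation eEF1A delivers aminoacyl-tRNA, the eEF1B subunits recharge eEF1A, and eEF2 moves the ribosome along by one codon. In neurons this machinery also works in dendrites, where its control through mTOR, eIF2 kinases and eEF2 kinase is tied to synaptic plasticity.

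The messenger RNAs of several of these factors begin with a 5′ terminal oligopyrimidine tract (TOP), a run of C and T letters at the first transcribed base through which mTOR sets their translation. Of the 9 members with TOP transcripts by textbook knowledge, 5 had a start in the RefSeq table of promoters (mouse build GRCm38.p6). Their sequences are shown because the pull-down reads ribosome-bound RNA, and the tract is a known sequence feature of these TOP transcripts, not of the whole family. Each line holds the 10 bases before and the 20 bases after the annotated start, with capitals marking a run of at least 6 C or T that begins with C in the 10 bases before the start or the first 10 transcribed bases:
Eef1a1, chr9:78481705-78481734, minus strand: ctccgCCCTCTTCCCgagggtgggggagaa
Eif3f, chr7:108934405-108934434, plus strand: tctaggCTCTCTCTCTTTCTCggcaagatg
Eef1b2, chr1:63176821-63176850, plus strand: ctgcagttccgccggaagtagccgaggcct
Eef2, chr10:81176621-81176650, plus strand: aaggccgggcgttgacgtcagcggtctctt
Eif4b, chr15:102073763-102073792, plus strand: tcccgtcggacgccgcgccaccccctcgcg
Eef1a1 and Eif3f held such a run, beginning at −5 and −4 from the annotated start. Both runs thus begin before the first transcribed base, and they were not shown to be the TOP tract. In Eif4b a run of C and T begins just past the first 10 transcribed bases and so is left unmarked. For Eef1b2 and Eef2 no run that meets the rule began in the window searched, which says no more than that. The printed line of Eef2 ends in C and T letters past the first 10 transcribed bases, which are also left unmarked. Of the 53 members 40 had an entry in the table, and 9 of those (22.5%) held a run. It was held by 21.1% of all genes in the table and 23% of the tested genes with an entry. Counted by window and not by gene, 18.5% of all windows of 300 bases held a run in the stretch searched around the start.

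The arrays resembled each other closely, with correlations over probe sets of 0.981 to 0.991 within groups and 0.973 to 0.988 between groups. The median of all 41345 probe sets on an array was 5.08 to 5.22. Many markers of other cells were called lower in the pull-downs averaged over both targets, as were 32% of all tested genes. The marker counts are to be read against that share. Of the astrocyte markers 5 of 6 fell, with mean log2 levels of 8.68 to 8.98 in pull-downs and 9.15 to 9.43 in inputs. Of the oligodendrocyte markers 4 of 5 fell (9.34 to 9.42 against 9.78 to 10.02), and 4 of 5 microglial markers fell (7.63 to 7.96 against 8.01 to 8.45). Of the GABAergic markers 4 of 6 fell (8.26 to 8.45 against 8.57 to 8.67), as did 2 of 4 endothelial markers (6.41 to 6.56 against 6.78 to 6.90). Among the markers that did not pass were the GABAergic Sst (0.04) and the oligodendrocyte Mbp (−0.07). The glutamatergic markers, which define the projection neurons of this tissue, were bright on every array, at 10.31 to 10.51 in pull-downs and 10.47 to 10.54 in inputs, and 2 of 4 fell. No marker list was at 0 in the pull-downs, and the part of these cells in the members' differences was not tested. In such bulk RNA, fewer cells of a type and less RNA per cell cannot be told apart.

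The first comparison asked which factors were over- or under-represented in ribosome-bound RNA of the labelled cells, averaged over both injection targets. Eif3i, Eef1e1, Eif1b, Eef1akmt1, Eif1-ps3 and Eif4a3l1 were higher in pull-downs, by 1.15 to 1.28-fold. Eif4e3, Eif1a, Eef2k and Eif5a were lower, by 1.16 to 1.39-fold. The other 43 members did not pass limma's test at a Benjamini-Hochberg adjusted p of 0.05. Of all tested genes 41.5% were called in this comparison, 9.6% higher and 32% lower, and of the members 11.3% were higher and 7.55% lower. The members' log2 differences ran from −0.47 to 0.35 with a median of −0.02, where the median of all tested genes was −0.11. Of the 53 members 24 lay above 0 and 29 below it.

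**Figure D1:**
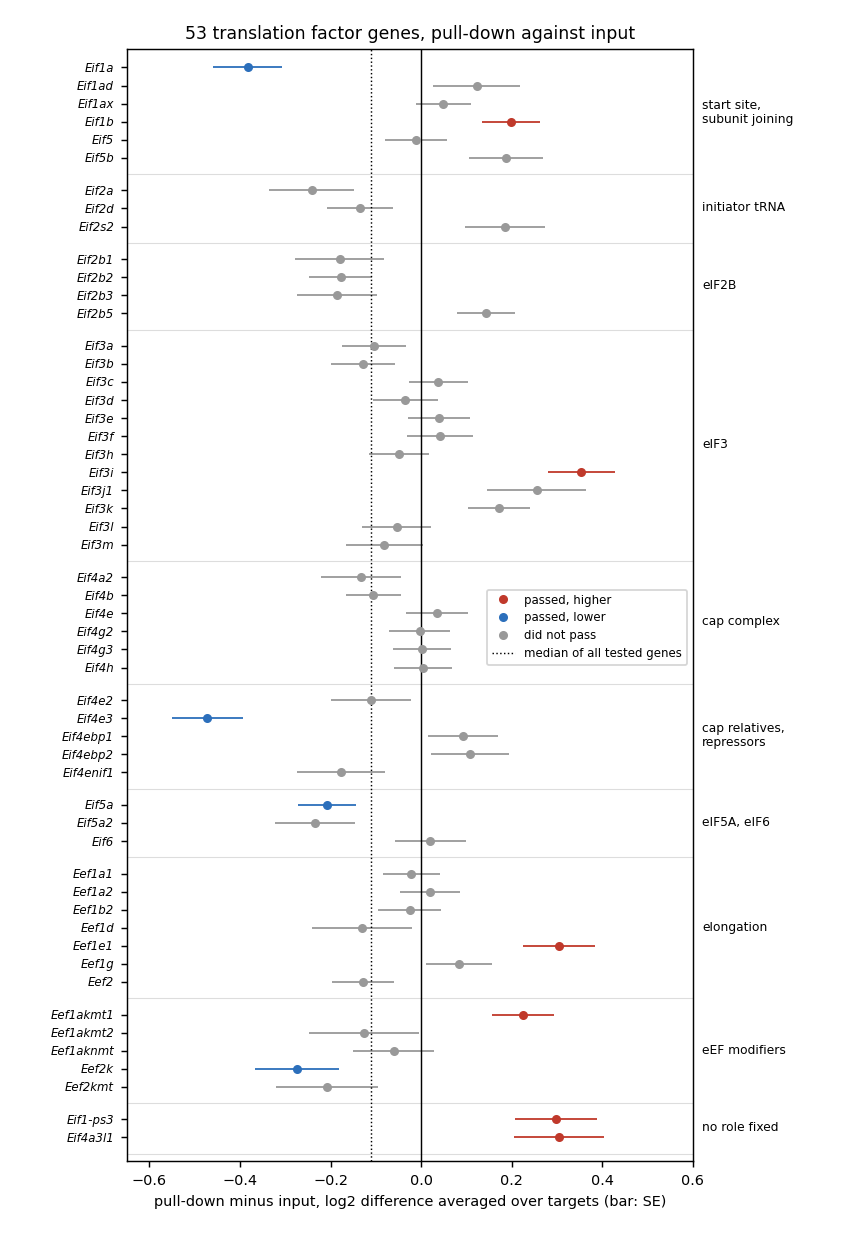
The log2 difference between pull-down and input, averaged over both targets, is plotted for each of the 53 genes with its standard error as a bar, ordered by role. The 6 genes in red and the 4 in blue passed the test, the dotted line marks the median of all tested genes at −0.11, and most of the eIF3, cap complex and elongation genes sit within 0.2 of 0.

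The direction of a small difference depended on how the arrays were scaled. The deposited scale put the median of all genes at −0.11, centring each array on its median over all probe sets put it at −0.16, and quantile normalization at −0.05. The members called were then 3 higher and 6 lower with the centring, and 9 higher and 2 lower with quantile normalization. Centring on the tested genes alone, a scaling chosen after seeing the data, put the median of all genes at 0.03 and called 15 members higher and 2 lower, with 2498 higher and 1753 lower over all genes. Eif3i, Eef1e1 and Eif1-ps3 were higher, and Eif4e3 and Eif1a lower, on all 4 scales. Eef2k and Eif5a were lower on the deposited scale and with the centring on all probe sets only, and Eef1akmt1, Eif1b and Eif4a3l1 did not pass with that centring.

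Start-site selection gave members on both sides. Eif1a, an autosomal gene for eIF1A, the factor that holds initiator tRNA in the scanning subunit, read 7.48 and 7.32 in NAC pull-downs, 7.80 and 7.62 in NAC inputs, 7.29 and 7.39 in VTA pull-downs, and 7.85 and 7.73 in VTA inputs. Every pull-down lay below every input. Its difference was −0.38 (SE 0.08, 95% interval −0.55 to −0.21, limma adjusted p = 0.0041). Its X-linked relative Eif1ax stayed between 9.73 and 9.84 on the 8 arrays, with a difference of 0.05 (interval −0.09 to 0.19) that did not pass on the deposited scale and passed as higher (0.18) with the centring on tested genes.

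Eif1b, a close relative of eIF1, which guards the choice of the start codon, read 10.09 and 10.03 in NAC pull-downs against 9.80 and 9.72 in NAC inputs. The VTA pull-downs both read 9.92, against 9.88 and 9.77 in VTA inputs. The pull-downs were all above the inputs, but the gap to the brightest VTA input was small. The averaged difference was 0.20 (SE 0.06, limma adjusted p = 0.033), and it missed the threshold when any single array was left out, with adjusted p from 0.051 to 0.10. Of the 6 start-site and subunit-joining genes, 1 was higher, 1 lower and 4 did not pass. Among the latter Eif5b, the GTPase of subunit joining, differed by 0.19.

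The genes for initiator tRNA delivery and for eIF2B gave no call in the averaged comparison, with 3 and 4 genes tested. At an unadjusted p under 0.05, Eif2a (−0.24), which can deliver initiator tRNA apart from eIF2, and the eIF2B subunit gene Eif2b2 (−0.18) were below 0. The median of the 4 eIF2B genes was −0.18. Eif2a passed as lower with trend and robust moderation, with each array centred on its median and with a filter on all 8 arrays. It also did so with the replicate number as a block and on leaving out some single arrays. Eif2b5 passed as higher with quantile normalization, and Eif2b5 and Eif2s2 did with centring on the tested genes.

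Of the 12 eIF3 genes Eif3i was the 1 that passed. It encodes a subunit of the complex that organises the small ribosomal subunit for scanning. The NAC pull-downs read 9.34 and 9.29 and the NAC inputs 8.94 and 8.91, while the VTA pull-downs read 9.21 and 9.33 and the VTA inputs 8.85 and 9.07. All pull-downs lay above all inputs. The difference was 0.35 (SE 0.07, interval 0.19 to 0.52, adjusted p = 0.0050), the highest value among the members. The other 11 subunits lay between −0.13 and 0.26, and the median of all 12 was 0.00. The lowest of them was Eif3b, a scaffold subunit of the same complex. Eif3k (0.17) passed as higher with quantile normalization, with trend and robust moderation and with centring on the tested genes. With the centring on tested genes Eif3c and Eif3j1 passed as higher too.

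The cap complex gave no call among 6 genes, and 0 of them reached an unadjusted p under 0.05 in limma. Their differences ran from −0.13 to 0.03. Eif4e, the cap-binding protein itself, read between 9.79 and 10.13 in pull-downs and between 9.82 and 9.97 in inputs, with a difference of 0.03 (interval −0.12 to 0.19).

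Its relative Eif4e3 was the member with the lowest difference. The gene encodes a cap-binding protein of the eIF4E family. It read 8.11 and 7.82 in NAC pull-downs and 8.22 and 8.16 in NAC inputs. In VTA it read 7.54 and 7.55 in pull-downs and 8.24 and 8.28 in inputs. All pull-downs lay below all inputs, and the VTA pull-downs lay below the NAC pull-downs. The averaged difference was −0.47 (SE 0.08, interval −0.64 to −0.30, limma adjusted p = 0.0018). Among the other cap-binding relatives and repressors, the translational repressors Eif4ebp1 (0.09) and Eif4ebp2 (0.11) did not pass.

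Eif5a and Eif5a2 encode the isoforms of eIF5A, the factor that carries the modified amino acid hypusine and eases peptide bonds at stalled ribosomes. Eif5a read 8.52 and 8.41 in NAC pull-downs, 8.56 on both NAC inputs, 8.20 on both VTA pull-downs, and 8.49 and 8.55 in VTA inputs. The first NAC pull-down lay within the range of the inputs, and the VTA pull-downs lay well below it. The difference was −0.21 (SE 0.06, adjusted p = 0.026). Eif5a2 read 8.69 and 8.68 in NAC pull-downs, 8.79 and 8.70 in NAC inputs, 8.29 and 8.69 in VTA pull-downs, and 8.90 on both VTA inputs. Its pull-downs were all below its inputs, narrowly so for NAC, and its difference of −0.23 (SE 0.09, adjusted p = 0.057) did not pass.

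Of the 7 genes in the elongation group, the 6 that encode eEF1A, eEF1B subunits or eEF2 did not pass. Eef1a1, the general eEF1A gene, stayed between 12.03 and 12.19 on all arrays, with a difference of −0.02 (interval −0.16 to 0.12). Eef1a2, the eEF1A gene of mature neurons and muscle, stayed between 11.80 and 11.97, with a difference of 0.02 (interval −0.13 to 0.17). Pull-downs and inputs overlapped for both. The member of this group that passed was Eef1e1, which carries an elongation factor symbol but codes for a scaffold protein of the multi-tRNA synthetase complex. Eef1e1 read 9.93 and 9.94 in NAC pull-downs, 9.54 and 9.62 in NAC inputs, 9.82 and 9.94 in VTA pull-downs, and 9.78 and 9.48 in VTA inputs. Its pull-downs lay above all inputs, by little for the first VTA input, and the difference was 0.30 (SE 0.08, adjusted p = 0.014).

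Of the 5 enzymes tested that modify elongation factors, 1 passed as higher and 1 as lower on the deposited scale. Eef2k, the kinase that halts eEF2, read 7.08 and 6.70 in NAC pull-downs against 7.29 and 7.12 in NAC inputs, and 7.00 and 7.15 in VTA pull-downs against 7.28 and 7.34 in VTA inputs. The groups overlapped slightly, and the difference was −0.27 (SE 0.09, adjusted p = 0.039). Eef1akmt1, a lysine methyltransferase of eEF1A, read 7.76 and 7.75 in NAC pull-downs and 7.38 and 7.34 in NAC inputs. In VTA it read 7.50 and 7.54 in pull-downs and 7.36 and 7.55 in inputs, which overlapped. Its averaged difference was 0.23 (SE 0.07, adjusted p = 0.024).

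The last members called, Eif1-ps3 and Eif4a3l1, are near-identical copies of other genes, and their signal may belong in part to those. Eif1-ps3, annotated as a pseudogene of Eif1, read 8.05 and 7.96 in NAC pull-downs, 7.80 and 7.71 in NAC inputs, 7.89 and 7.70 in VTA pull-downs, and 7.63 and 7.27 in VTA inputs, a difference of 0.30 (SE 0.09, adjusted p = 0.025). Eif4a3l1, a copy of the exon junction helicase gene Eif4a3, read 7.46 and 7.22 in NAC pull-downs, 6.90 and 7.14 in NAC inputs, 7.52 and 7.15 in VTA pull-downs, and 7.04 and 7.05 in VTA inputs, a difference of 0.30 (SE 0.10, adjusted p = 0.033). The groups overlapped for Eif1-ps3, and the pull-downs of Eif4a3l1 lay above its inputs by a narrow margin. A probe set shared by Eif4a3, Eif4a3l1 and Gm5576 differed by −0.06, so the call did not extend to it. Likewise Eif3j1 differed by 0.26 and a set shared by Eif3j1 and Eif3j2 by −0.26, and neither passed. For Eef1a1 a second set of its own differed by 0.02, and a set shared with Gm6548 by 0.43 (adjusted p = 0.038 in a limma fit over 16892 probe sets).

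**Figure D2:**
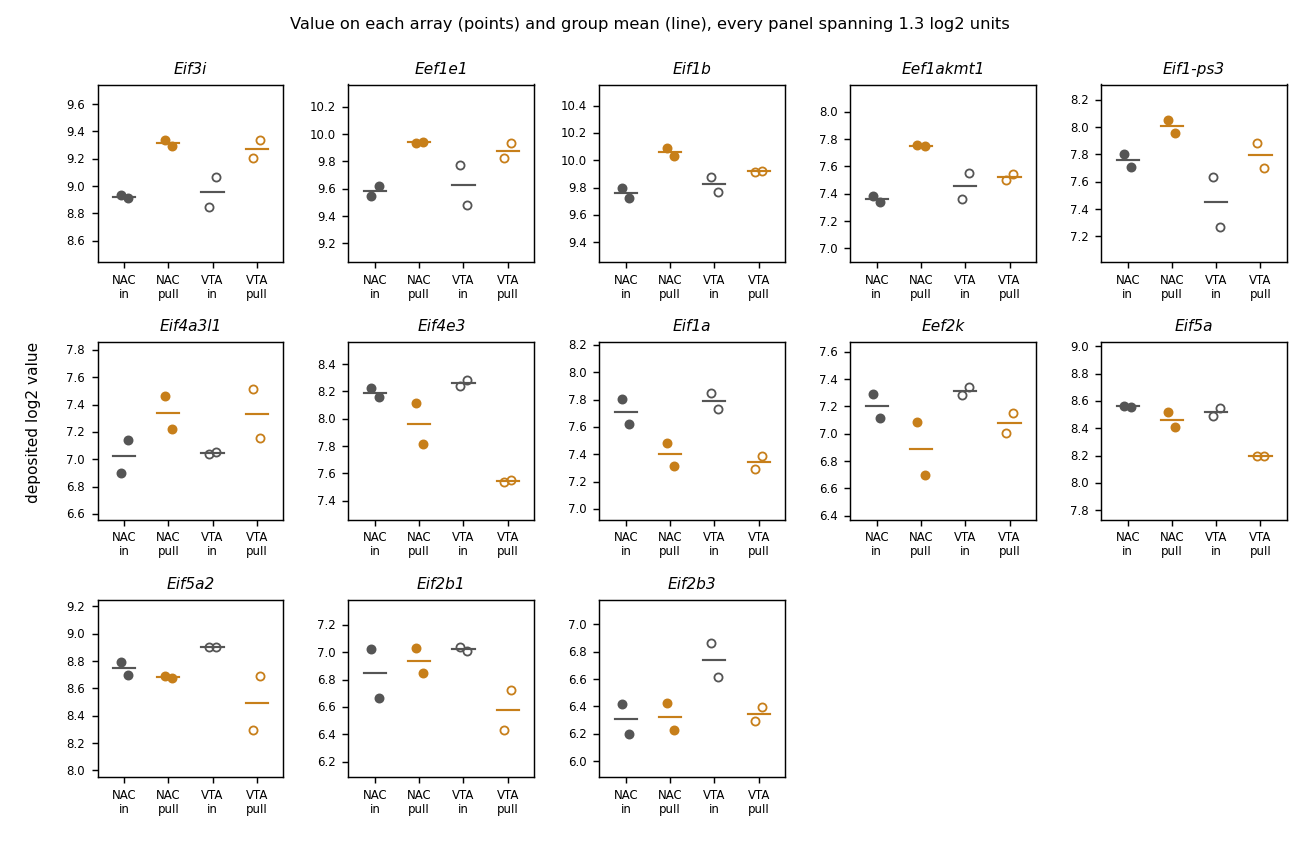
Each panel plots the deposited log2 value of 1 gene on the 8 arrays as points, with NAC filled, VTA open, inputs grey and pull-downs orange, and the group mean as a line, all panels spanning the same log2 range. The VTA pull-downs of Eif4e3 at 7.54 and 7.55 stand apart from its inputs at 8.16 to 8.28, whereas the arrays of Eef2k and Eif5a overlap between pull-downs and inputs.

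The averaged calls leaned on single arrays to different degrees. Eif3i, Eif1a and Eif4e3 passed in all 16 alternative settings, including each of the 8 fits that left out 1 array. Without the first NAC input the members higher in pull-downs dropped from 6 to 1, and without the first NAC pull-down to 2. Without the second NAC input or either VTA input they dropped to 3. The members lower in pull-downs went from 4 to 2 without the second NAC pull-down, the first NAC input or the first VTA input, to 8 without the second VTA pull-down, and to 6 without the first NAC pull-down. Eef1e1 was lost without the first NAC input (adjusted p = 0.053) and with no filter on dim genes. Eef2k, Eif5a, Eef1akmt1, Eif1-ps3 and Eif4a3l1 were each lost on leaving out any of 5 arrays.

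**Figure D3:**
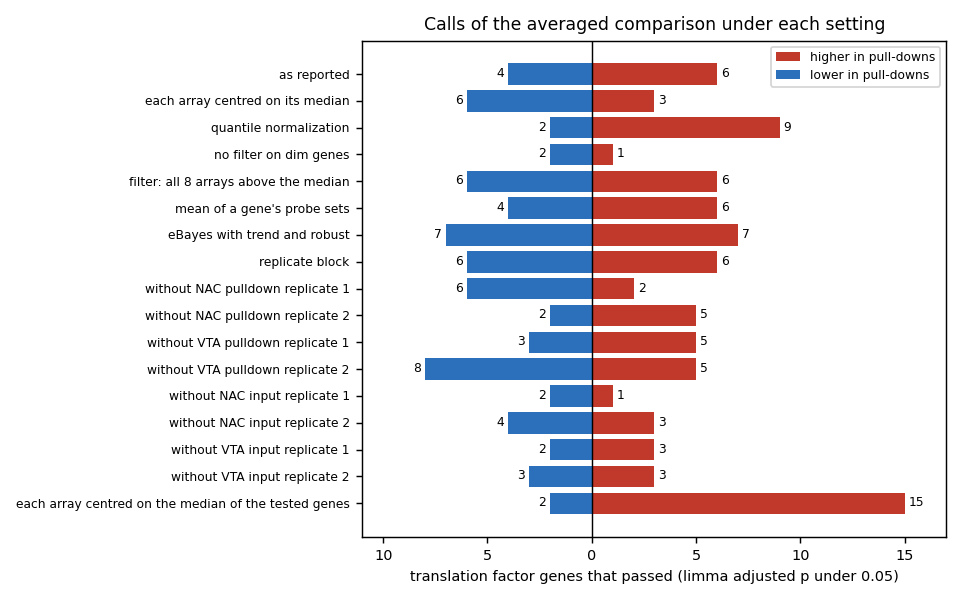
Bars count the members that passed in the averaged comparison under each setting, higher in pull-downs to the right and lower to the left. The count of higher members runs from 1 to 15 and that of lower members from 2 to 8, against 6 and 4 as reported.

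The TOP members gave 0 calls of 9 in the averaged limma fit, and 0 of them had an unadjusted p under 0.05. With a variance trend and robust moderation Eef2 passed as lower, as did Eef1d on leaving out the second VTA pull-down. In VTA alone 0 TOP members passed on the deposited scale. Under other settings Eif4b, Eef2 and Eef1d passed there as lower and Eif3f as higher. The averaged differences of the 9 ran from −0.13 to 0.08 with a median of −0.03. The other 44 members had a median of −0.01, and 6 of them were higher and 4 lower. Eef1a1 and Eif3f, which held a marked run near the annotated start, differed by −0.02 and 0.04. Eef1b2, Eef2 and Eif4b, with no run that begins in the window searched, differed by −0.03, −0.13 and −0.11. Over all tested genes with a promoter entry, 9.01% of those with a run were higher and 32.2% lower, and 9.41% and 32.4% of those without one.

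Taken by target, the NAC pull-down against its input called 2 members higher and 0 lower, where 12.3% of all genes were called, 4.34% higher and 8.01% lower. In limma 9 members had an unadjusted p under 0.05, and with trend and robust moderation 5 were higher and 0 lower. The 2 were Eif3i at 0.39 (SE 0.10, adjusted p = 0.038) and Eef1akmt1 at 0.39 (SE 0.10, adjusted p = 0.032). Both lost the call on leaving out any of the 4 NAC arrays, with adjusted p between 0.082 and 0.16, and on centring each array on its median. The members' median was 0.02, and that of all genes −0.06.

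In VTA the pull-down called 1 member higher and 6 lower than its input, where 31.3% of all genes were called, 5.44% higher and 25.9% lower. The members' median was −0.08 and that of all genes −0.15. Eif3i was again higher, at 0.31 (SE 0.10, adjusted p = 0.044), a call lost on leaving out any of 7 arrays (adjusted p 0.054 to 0.27), with each array centred on its median, with no filter on dim genes and in a fit of the compared groups alone. Eif4e3 was lower by the widest margin, 1.64-fold, at −0.72 (SE 0.11, adjusted p = 0.0031), and it passed in all 17 alternatives. Eif1a at −0.45 and Eif5a at −0.32 were lower as in the averaged comparison, and Eif5a2 was lower at −0.41 (adjusted p = 0.034). With no filter on dim genes the calls of Eif1a, Eif5a and Eif5a2 were lost. Those of Eif5a and Eif5a2 were also lost with quantile normalization and in a fit of the compared groups alone.

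The other members lower in VTA were genes of eIF2B, the exchange factor on which the integrated stress response acts. Eif2b1, for the alpha subunit that senses phosphorylated eIF2, read 6.43 and 6.72 in VTA pull-downs and 7.04 and 7.01 in VTA inputs, against 7.03 and 6.85 in NAC pull-downs and 7.03 and 6.67 in NAC inputs. Only the VTA pull-downs of Eif2b1 stood apart from their inputs, at −0.45 (SE 0.14, adjusted p = 0.036). Eif2b3, for a subunit of the catalytic core, read 6.30 and 6.40 in VTA pull-downs and 6.86 and 6.61 in VTA inputs, against 6.43 and 6.22 in NAC pull-downs and 6.42 and 6.20 in NAC inputs. Its VTA inputs were the arrays that stood apart, and its difference was −0.39 (SE 0.12, adjusted p = 0.038). On centring over tested genes the VTA differences of Eif2b1 (−0.26) and Eif2b3 (−0.20) no longer passed, nor did those of Eif1a, Eif5a and Eif5a2. Eif2b1 and Eif2b3 also did not pass with quantile normalization or with no filter on dim genes. Without the first VTA pull-down or the first VTA input 1 member was called lower in VTA, and without the second VTA input 3.

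**Figure D4:**
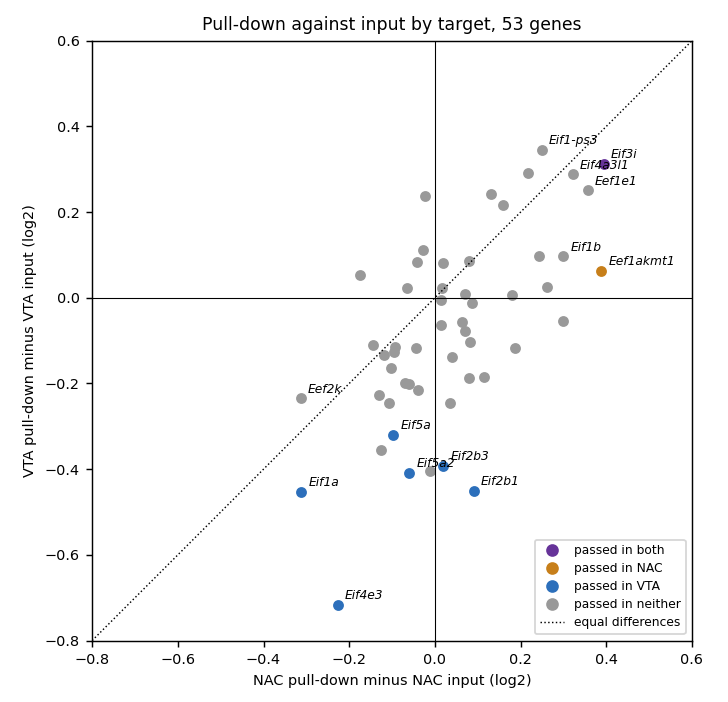
Each point is 1 of the 53 genes, placed by its pull-down minus input log2 difference in NAC (horizontal) and in VTA (vertical), with the line of equal differences dotted and colours for the target in which it passed. Eif3i passed in both, with calls lost on leaving out any of 4 arrays in NAC and any of 7 in VTA, Eif4e3 lies lowest at −0.72 in VTA and −0.23 in NAC, and Eif2b1 and Eif2b3 lie near 0 in NAC.

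The difference between the targets was then tested itself. Some glial markers differed between the targets: VTA minus NAC, Gfap differed by −1.22 in pull-downs and −0.84 in inputs, and C1qa by −0.83 and −0.91, each with a limma adjusted p under 0.05. They were 1 of 6 astrocyte and 1 of 5 microglial markers, no marker of the other lists passed between targets, and their part in the members' values was not tested. Between VTA and NAC pull-downs limma called 0 members, where 2.47% of all genes were called (0.418% higher and 2.05% lower), and 7 members had an unadjusted p under 0.05. These were Eef2kmt (−0.50), which methylates eEF2, Eif4e3 (−0.42, interval −0.66 to −0.17, adjusted p = 0.085), Eif2b1 (−0.36), Eif5a (−0.27), Eif4e (−0.25), Eef1akmt1 (−0.23) and Eif4b (−0.22), each lower in VTA. With trend and robust moderation Eif4e3 passed as lower. Without the second NAC pull-down Eif4e3 passed, and without the second VTA pull-down Eef2kmt did. The members' median was −0.05 and that of all genes −0.04, with 42 of the 53 below 0, where 6981 of all 11712 genes were. The 9 TOP members lay below 0, with a median of −0.07, as did 33 of the other 44 members, and none of the 9 passed, 1 having an unadjusted p under 0.05.

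Between the inputs limma called 0 members, where 1.5% of all genes were called (0.12% higher and 1.38% lower), and trend and robust moderation also called 0. An unadjusted p under 0.05 was found for 3, Eif2b3 at 0.43, Eif3j1 at −0.37 and Eif1-ps3 at −0.31. The members' median was 0.05 and that of all genes 0.06. The change of enrichment from NAC to VTA, which is the interaction of pull-down and target, called 0 members in both fits, where 0.0683% of all genes were called (0.00854% higher and 0.0598% lower). In it 5 members had an unadjusted p under 0.05. These were Eif2b1 at −0.54 (adjusted p = 0.35), Eif4e3 at −0.49 (adjusted p = 0.29), Eif2b3 at −0.41, Eef1akmt1 at −0.33 and Eif4b at −0.28. The calls made in 1 target and not the other, Eif2b1 and Eif2b3 included, were therefore not shown to differ between targets.

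The spread among arrays was also described. The members' within-group standard deviation had a median of 0.094, against 0.11 for all tested genes, and their range over the 8 arrays a median of 0.36, against 0.49. The narrowest range was 0.099 and the widest 0.91, the latter for Eef2kmt. Of the members 4 (7.55%) had all pull-downs above all inputs and 4 (7.55%) all below, where 7.91% and 24.8% of all tested genes did. The latter 4 were Eif1a, Eif4e3, Eif2b2 and Eif5a2. Between targets 1 member had all VTA arrays below all NAC arrays, Eef1b2, which recharges eEF1A, and 0 had all above, where 2.56% and 1.58% of all tested genes did.

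The other genes of translation were described from lists of 72 genes, of which 62 were tested. In the averaged comparison 4 of the 62 (6.45%) were higher and 22 (35.5%) lower, with a median of −0.15, beside 9.6% higher, 32% lower and a median of −0.11 over all tested genes. The counts by list below are to be read against those shares, and nothing particular to a list was tested. Of the eIF2 kinases 2 of 4 fell, Eif2ak2 at −0.53 and Eif2ak1 at −0.28. In mTOR and MNK signalling 5 of 10 fell, among them Mtor (−0.34), Tsc1 (−0.33) and Rps6kb2 (−0.31), an S6 kinase gene. Of the cytosolic tRNA synthetases and their scaffolds 8 of 18 fell, with Iars at −0.44 and Eprs at −0.34, and Hars rose by 0.19. The poly(A)-binding list gave 0 calls of 4, for Pabpc4 and the genes Paip1, Paip2 and Paip2b of proteins that interact with poly(A)-binding protein. Pabpc1 was under the filter and not tested.

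For the enzymes that modify eIF5A and eEF2, 3 of 7 fell and 1 rose. Dhps, which makes hypusine on eIF5A, was higher at 0.39 (adjusted p = 0.0039). By target, Dhps passed in NAC (0.60, adjusted p = 0.011) and not in VTA (0.18, adjusted p = 0.21). Eif5a passed in VTA (−0.32) and not in NAC (−0.10, adjusted p = 0.49). The change of enrichment from NAC to VTA did not pass for Dhps (−0.41, limma adjusted p = 0.35) or for Eif5a (−0.22). Neither gene was therefore shown to differ between targets. Dph6 (−0.50) and Dnajc24 (−0.41), which serve the diphthamide of eEF2, were lower, beside an Eef2 value of −0.13 that did not pass. Of termination, recycling and rescue factors 1 of 10 rose, Denr at 0.38, and 2 fell, Abce1 at −0.38 and Gtpbp1 at −0.31. Of mitochondrial factors 1 of 9 rose, Tsfm at 0.35, and 2 fell. Over all lists the count of lower genes was 11 to 22 on leaving out 1 array, with 11 without the first NAC input and 12 without the second NAC pull-down, and centring on tested genes gave 11 higher and 8 lower.

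**Figure D5:**
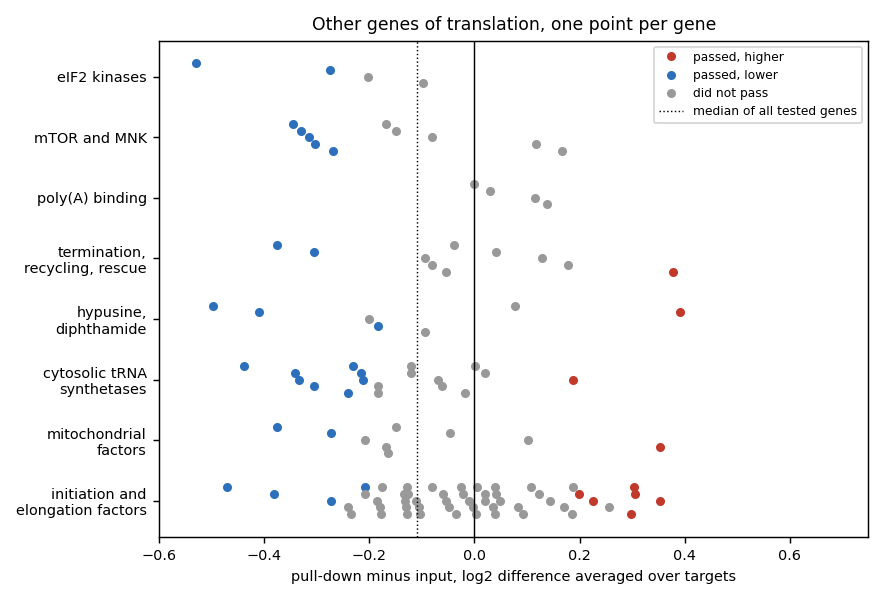
Each point is a gene, placed by its averaged pull-down minus input log2 difference and grouped by list, with the 53 initiation and elongation factors at the bottom and the median of all tested genes dotted. The eIF2 kinases all lie below 0, and the genes of the poly(A)-binding list (Pabpc4, Paip1, Paip2 and Paip2b) lie at or above it.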

How the data were processed

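The authors deposited 1 log2 value per probe set and array for 8 arrays, made with Transcriptome Analysis Console per the submitters' processing notes. Its version, background correction and normalization are not stated in those notes, and the log2 values were used as deposited. Gene names came from the platform's annotation table: of the probe sets, 23521 had 1 symbol, 1814 several and 16010 none. A linear model of 4 group means was fitted to all 8 arrays and 11712 genes with limma 3.58.1 in R 4.3.3 (lmFit, eBayes), with 4 residual degrees of freedom and 6.07 added by moderation. Tests were two-sided, with Benjamini-Hochberg adjustment over all 11712 genes and a threshold of 0.05, for 6 comparisons. The code was tested on simulated data. The members, roles, marker and pathway lists were chosen with earlier results of these data known. Members that passed in any comparison are named, and those that passed in the averaged one are given on every array, with the paralog pairs. The number of arrays limits the precision. Levels of different probe sets are not compared. The settings tried besides were 18, of which centring on tested genes and crossed replicate numbers were chosen after seeing the data. Sequences come from RefSeq (GRCm38.p6).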

Additional observations from a re-analysis of the deposited data

How the results depend on the processing

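No member changed sign in a call under any of the 18 settings. In the averaged comparison (6 higher, 4 lower), the higher members numbered 3 with each array centred on its median, 1 with no filter on dim genes and 15 with centring on the tested genes, and 1 to 5 on leaving out 1 array. The lower ones numbered 2 with quantile normalization, 2 with no filter, 7 with trend and robust moderation, 2 with centring on the tested genes, and 2 to 8 on leaving out 1 array. In NAC (2 higher) the counts were 0 with the centring, 4 with quantile normalization, 0 with no filter, 4 with a filter on all 8 arrays, 5 with trend and robust moderation, 5 with centring on the tested genes and 0 to 2 on leaving out 1 array, and 0 to 1 lower. In VTA the higher count (1) was 0 with the centring, 3 with quantile normalization, 0 with no filter, 2 with the stricter filter, 3 with trend and robust moderation, 0 with the compared groups alone, 11 with centring on the tested genes and 0 to 2 on leaving out 1 array. The lower count (6) was 9 with the centring, 2 with quantile normalization, 1 with no filter and 4 with the compared groups alone. It was 1 with centring on the tested genes and 1 to 6 on leaving out 1 array. The stricter filter added Eif2a and Eif4b to the 6, and trend and robust moderation added Eef2, Eif2a and Eif4b. Between pull-downs the lower count was 1 with trend and robust moderation and 0 to 1 on leaving out 1 array. The cause of these shifts was not tested.

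The replicate numbers were not shown to pair the arrays: same-numbered arrays had correlated deviations of 0.30 in NAC, −0.02 in VTA, −0.13 between pull-downs and 0.22 between inputs. With the replicate number as a block, the averaged comparison gave 6 higher and 6 lower, and VTA 2 higher and 8 lower. The crossed pairing of the pull-downs, chosen after seeing the data, called 0 members.

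Signal limits the weakest members: Eif2s2 and Eef1aknmt stood above the array median on 6 arrays, and the 5 genes under the filter were not tested.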
